A study of Mus musculus with 12 samples.

Results

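The circadian clock transcripts described here are Arntl, Npas2, Per1, Per2, Per3, Ciart, Nr1d1, Nr1d2, Dbp and Tef, 10 of the 53715 genes in the count table. They were chosen by gene symbol and not by a threshold on their measured values, though earlier results of these data were known. All 10 were among the 16558 genes left after the filter on low counts. The table holds 12 RNA-seq libraries of intestinal mucosa from 8-week-old male C57BL/6J mice, with 3 libraries each of ileum control, ileum Slc39a8-IEC KO, colon control and colon Slc39a8-IEC KO. The labels give the genotype as Slc39a8-fl/fl in control mice and Slc39a8-fl/fl:Villin-Cre in KO mice, so that by the labels every mouse carried the floxed allele, whereas the study's methods describe its controls as floxed, wild-type and Villin-Cre animals combined. Villin-Cre acts in intestinal epithelial cells, while the RNA came from the whole mucosa and was reverse transcribed with oligo-dT, so non-epithelial cells also contributed transcripts. A lower level in such bulk RNA can come from fewer cells of a type or from less RNA per cell, and these cannot be told apart. The methods state a light/dark cycle of 12 h each, and no source used here gives the hour at which tissue was taken. The methods give each library of a group as a separate mouse, but the labels do not say whether ileum and colon came from the same mice. The questions addressed were whether the relative levels of clock transcripts, which depend on the phase of the clock, differed between genotypes, between tissues or between single libraries.

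The mammalian clock is a transcriptional feedback loop that runs in most cells. ARNTL (also called BMAL1) pairs with CLOCK or its relative NPAS2 and activates the Per, Cry, Nr1d, Dbp and Ciart genes through E-box elements, and the PER and CRY proteins then inhibit the pair. NR1D1 and NR1D2 (REV-ERB alpha and beta) repress Arntl and Npas2 through ROR response elements, and DBP and TEF act on D-box elements of further genes, so that Arntl and Npas2 peak at roughly the opposite time of day from Nr1d1, Dbp and the Per genes. In the intestine, feeding time is a strong cue for this oscillator.

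Some of the elements named above were found in the promoters of some members. RefSeq windows from 250 bases before to 50 bases after the annotated start (GRCm38.p6) were found for 9 of the 10 members, all but Per2, as 12 windows of 300 bases, and 5 motifs were searched on both strands. The E-box CACGTG was found in Ciart (3 times, at positions -116, -58 and -44 from the start), Per1 (-166) and Tef (-127 and -138, in 2 windows), and in 7.15% of all 32851 promoter windows. The D-box TTANGTAA had 2 matches in Per3 (at -205 and -158), and in 2.32% of windows. The ROR response element TAGGTCA was found in Arntl, at position 31 counted from 1 at the start, and in 2.61% of windows, while its variant TGGGTCA (3.98% of windows) was found in none of the members. The letters TGACGTC, shared with the cAMP response element, were found in Per1 (-132 in its other window) and in 3.21% of windows. No match was found in the windows of Npas2, Nr1d1, Nr1d2 and Dbp, which says only that these letters are not in those 300 bases. The stretches with matches are shown because they show which of the clock's own elements lie beside which member, with the matched letters in capitals, 5′ to 3′ on the strand of the gene. They lie at chr3:95882254-95882353 (minus strand, Ciart), chr15:81802519-81802578 and chr15:81811249-81811308 (plus strand, Tef), chr11:69098756-69098815 and chr11:69099994-69100053 (plus strand, Per1), chr4:151044801-151044880 (minus strand, Per3) and chr7:113207526-113207555 (plus strand, Arntl).
Ciart, E-boxes: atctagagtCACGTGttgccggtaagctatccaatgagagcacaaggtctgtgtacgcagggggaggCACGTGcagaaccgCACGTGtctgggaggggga
Tef, E-box of the first window: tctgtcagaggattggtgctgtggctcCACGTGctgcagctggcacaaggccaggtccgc
Tef, E-box of the other window: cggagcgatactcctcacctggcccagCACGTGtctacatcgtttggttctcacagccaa
Per1, E-box: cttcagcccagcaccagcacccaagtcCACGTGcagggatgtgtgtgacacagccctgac
Per1, cAMP response element letters: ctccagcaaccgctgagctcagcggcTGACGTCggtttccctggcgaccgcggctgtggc
Per3, D-boxes: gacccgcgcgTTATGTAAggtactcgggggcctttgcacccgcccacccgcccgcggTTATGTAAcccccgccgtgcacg
Arntl, ROR response element: agggaaggcagaaagTAGGTCAgggacgga

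Library totals ranged from 16749129 to 27903075 rounded expected counts, and the smallest count of a member in a library was 58 (Arntl in colon control 2). Slc39a8, the targeted gene, lay lower in KO than in control libraries of both tissues without overlap, at 2.62 to 4.35 against 5.22 to 8.39 CPM (counts scaled to a common library size with TMM factors) in ileum and 7.35 to 11.5 against 20.1 to 20.8 CPM in colon. With both tissues fitted jointly, Slc39a8 differed by -1.13 on the log2 scale (SE 0.17), which did not pass after adjustment over all genes (adjusted p = 0.382 by edgeR). Tissue labels matched the markers, since Fabp6 of ileal enterocytes was at 3362 to 7110 CPM in ileum and 5.76 to 26.8 CPM in colon. In ileum control 3 and ileum KO 1, 6 smooth muscle transcripts summed to 34.2 and 20.2 CPM, against 1814 to 2643 CPM in the 4 other ileal libraries and 2536 to 3954 CPM in colon. Ileum KO 2 held 2632 CPM of the colonocyte transcript Car1, against 3.40 to 144 CPM in the other ileal libraries. The 6 epithelial transcripts (Vil1, Epcam, Cdh1, Krt8, Krt20 and Cdx2) summed to 7997 to 9174 CPM in colon and 15724 to 20494 CPM in ileum, and 5 of them (all but Cdx2) were lower in colon in both genotypes by edgeR's quasi-likelihood test.

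Levels can be set against each other between genes only per length, and are given as CPM per kilobase of exon over the 6 libraries of a tissue (mean ± SD). In ileum the highest level was that of Nr1d1 (37.4 ± 4.25), followed by Nr1d2 (24.5 ± 3.31), Dbp (20.9 ± 3.54), Tef (16.0 ± 1.88), Per2 (10.6 ± 5.44), Per1 (4.36 ± 1.63), Npas2 (3.64 ± 1.10), Per3 (3.40 ± 1.55), Ciart (2.15 ± 0.346) and Arntl (1.72 ± 0.372). Apart from the step from Nr1d1 to Nr1d2, all neighbours in this order lay within 1 SD of each other when both SDs are counted. In colon the order was Dbp (43.6 ± 4.37), Nr1d1 (37.6 ± 9.53), Nr1d2 (31.7 ± 5.38), Tef (22.8 ± 2.89), Per1 (12.1 ± 2.45), Ciart (9.17 ± 0.914), Per2 (7.06 ± 1.39), Per3 (6.38 ± 0.953), Npas2 (2.29 ± 0.654) and Arntl (0.674 ± 0.266). The steps from Nr1d2 to Tef, Tef to Per1, Per3 to Npas2 and Npas2 to Arntl exceeded the SDs of both neighbours, and the others did not. By the means alone, Dbp stood at the top of the colonic order and Arntl at the bottom of both. Per1 and Ciart each ranked above Per2 in colon and below it in ileum. The steps from Dbp to Nr1d1 and from Ciart to Per2 in colon did not exceed the SDs of both neighbours. Nor did those from Per2 to Per1 and from Ciart to Arntl in ileum.

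Of the activators Arntl and Npas2, which peak together, Arntl was lower in colon in both genotypes and Npas2 passed the test in KO mice only, a difference between genotypes that did not itself pass. Arntl (ENSMUSG00000055116.8, chr7:113207465-113314126, plus strand, GRCm38) was at 16.7, 9.17 and 15.1 CPM in ileum control 1, 2 and 3 and at 12.3, 13.6 and 10.7 CPM in ileum KO 1, 2 and 3. In colon it was at 8.45, 2.78 and 5.60 CPM in control 1, 2 and 3 and at 3.35, 5.28 and 4.98 CPM in KO 1, 2 and 3. Every colonic library lay below every ileal library, and colon control 1 and 2 stood at the upper and lower end of the colonic range. Arntl was 2.43-fold lower in colon in control mice (log2 fold change -1.28, SE 0.36, adjusted p = 0.0215 by edgeR) and 2.68-fold lower in KO mice (-1.42, SE 0.37, adjusted p = 0.0133). Npas2 (chr1:39193731-39363236, plus strand), the relative of CLOCK, was at 25.8, 12.1 and 17.7 CPM in ileum control and 21.3, 13.8 and 14.1 CPM in ileum KO, in the order of the replicate numbers. Its colonic values were 14.7, 9.26 and 14.0 CPM in control and 6.5, 11.7 and 9.51 CPM in KO. The tissues overlapped in control mice but not in KO mice. Npas2 did not pass the threshold in control mice (-0.54, SE 0.31, adjusted p = 0.223 by edgeR) and was 1.78-fold lower in colon in KO mice (-0.83, SE 0.32, adjusted p = 0.0707). The call for Npas2 was lost in 8 of 24 alternatives, among them the fit that adds a muscle score (adjusted p = 0.114) the fit without both ileal libraries with few muscle transcripts (0.175) and the fits without ileum KO 1 (0.215), colon KO 1 (0.212) or colon KO 3 (0.14).

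The 3 Period genes encode the repressors that bind CRY proteins, and they did not share a tissue pattern. Per1 (chr11:69095217-69109960, plus strand), which also answers acutely to hormonal and cAMP signals, was at 16.3, 14.6 and 35.4 CPM in ileum control 1, 2 and 3 and at 35.8, 24.2 and 21.1 CPM in ileum KO 1, 2 and 3. In colon it was at 58.8, 66.8 and 49.2 CPM in control and 72.3, 89.9 and 72.1 CPM in KO. All 6 colonic libraries lay above all 6 ileal ones. Per1 was 2.63-fold higher in colon in control mice (log2 fold change 1.39, SE 0.31, adjusted p = 0.0064 by edgeR) and 2.89-fold higher in KO mice (1.53, SE 0.31, adjusted p = 0.00366). Per2 (chr1:91415982-91459324, minus strand) was at 36.5, 40.4 and 104 CPM in ileum control and 101, 39.1 and 51.4 CPM in ileum KO. In colon, Per2 values were 26.3, 48.1 and 39.3 CPM in control and 46.2, 41.5 and 46.9 CPM in KO. Ileum control 3 and ileum KO 1 stood at about the same high level while the 4 other ileal libraries lay within the colonic range or just above it. The difference of Per2 between tissues did not pass the threshold in control mice (-0.67, SE 0.42, adjusted p = 0.264 by edgeR) or in KO mice (-0.51, SE 0.42, adjusted p = 0.398), and with a muscle score as a term the sign in KO mice turned (0.15).

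Per3 (chr4:151003652-151044665, minus strand), whose protein is the least required of the 3 for rhythms in mice, was at 22.4, 20.6 and 48.4 CPM in ileum control and 54.4, 28.1 and 21.9 CPM in ileum KO, with the same pair of libraries high as for Per2. In colon it was at 51.6, 71.3 and 71.7 CPM in control and 57.8, 63.9 and 51.4 CPM in KO. Apart from ileum KO 1, all ileal libraries lay below the colonic range. Per3 was 2.12-fold higher in colon in control mice (log2 fold change 1.09, SE 0.37, adjusted p = 0.0454 by edgeR), a call lost without ileum control 1 or 2 or colon control 2 or 3 (adjusted p from 0.118 to 0.142). In KO mice it did not pass (0.73, SE 0.36, adjusted p = 0.156), and without ileum KO 1 the difference was 1.20 (adjusted p = 0.0242), and with the muscle score it was 1.33 (adjusted p = 4.64e-05). Ciart (chr3:95878503-95882251, minus strand), also known as Chrono, encodes a repressor that binds ARNTL. It was at 4.79, 5.94 and 4.16 CPM in ileum control and 3.82, 5.24 and 5.26 CPM in ileum KO. Its colonic values were 18.9, 23.6 and 20.8 CPM in control and 20.2, 22.6 and 18.3 CPM in KO. The lowest colonic library of Ciart stood above 3 times the highest ileal one. Ciart was 4.25-fold higher in colon in control mice (2.09, SE 0.20, adjusted p = 1.48e-05 by edgeR) and in KO mice (2.09, SE 0.19, adjusted p = 1.51e-05), the largest differences of the 10 members.

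Nr1d1 and Nr1d2 encode the nuclear receptors that repress Arntl, and of these Nr1d2 was higher in colon in control mice while Nr1d1 did not pass in either genotype. Nr1d1 (chr11:98767932-98775333, minus strand) was at 131, 110 and 97.6 CPM in ileum control and 105, 119 and 127 CPM in ileum KO. In colon it was at 116, 104 and 165 CPM in control and 76.8, 125 and 106 CPM in KO. Values of the 4 groups overlapped, with colon control 3 highest and colon KO 1 lowest. The tissue difference did not pass in control mice (log2 fold change 0.19, SE 0.21, adjusted p = 0.544 by edgeR) or in KO mice (-0.19, SE 0.21, adjusted p = 0.534). Nr1d2 (chr14:18204054-18239127, minus strand) was at 123, 122 and 141 CPM in ileum control and 163, 134 and 113 CPM in ileum KO. Its colonic values were 171, 182 and 210 CPM in control and 151, 188 and 127 CPM in KO. Control libraries of the tissues did not overlap and KO libraries did. Nr1d2 was 1.46-fold higher in colon in control mice (0.54, SE 0.17, adjusted p = 0.0361 by edgeR), a call lost without colon control 3 (adjusted p = 0.157), and did not pass in KO mice (0.19, SE 0.17, adjusted p = 0.447).

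Dbp and Tef encode bZIP activators of D-box genes and carry the clock's output to other pathways. Dbp (chr7:45705088-45710203, plus strand) was at 54.0, 72.3 and 47.9 CPM in ileum control and 63.3, 75.9 and 61.4 CPM in ileum KO. In colon it was at 116, 143 and 125 CPM in control and 145, 138 and 116 CPM in KO. No ileal library reached the colonic range. Dbp was 2.21-fold higher in colon in control mice (log2 fold change 1.14, SE 0.17, adjusted p = 0.000397 by edgeR) and 1.99-fold higher in KO mice (0.99, SE 0.17, adjusted p = 0.00102). Tef (chr15:81802421-81826863, plus strand) was at 107, 126 and 122 CPM in ileum control and 152, 127 and 119 CPM in ileum KO. In colon its values were 144, 194 and 193 CPM in control and 205, 178 and 161 CPM in KO. Only ileum KO 1 among the ileal libraries reached the colonic range, above colon control 1. Tef was 1.49-fold higher in colon in control mice (0.58, SE 0.16, adjusted p = 0.0166 by edgeR) and 1.37-fold higher in KO mice (0.45, SE 0.15, adjusted p = 0.0486), the latter lost without ileum KO 2, ileum KO 3, colon KO 1 or colon KO 2 (adjusted p from 0.105 to 0.208).

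**Figure D1:**
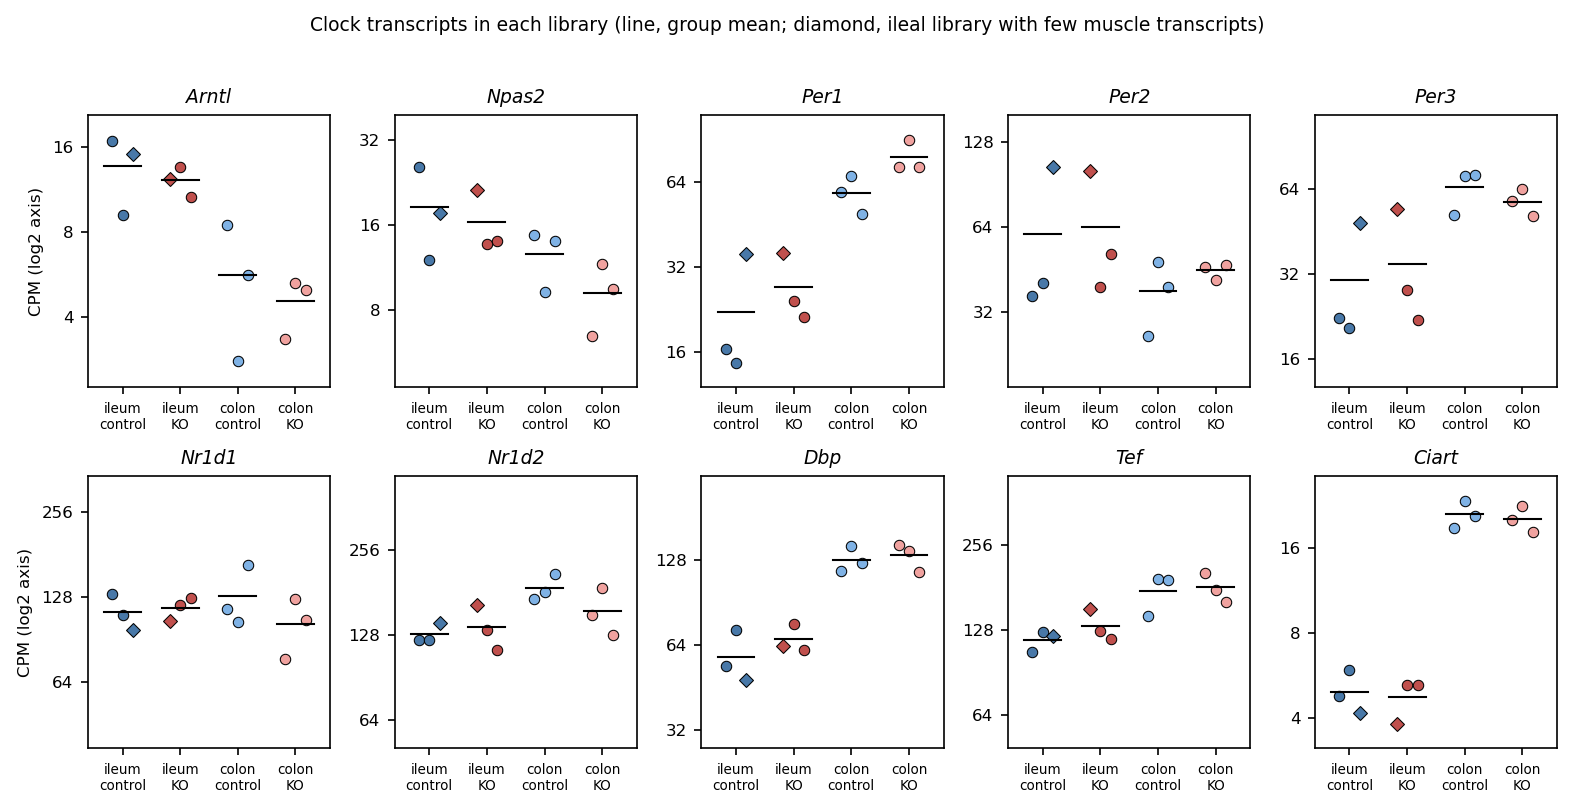
CPM of the 10 clock transcripts (y axis, log2 scale) in each of the 12 libraries, grouped by tissue and genotype, with a line at the mean of each group and diamonds for the 2 ileal libraries with few muscle transcripts. Arntl lies lower and Per1, Dbp and Ciart lie higher in all 6 colonic libraries than in all 6 ileal ones, and the diamonds stand high for Per1, Per2 and Per3.

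In control mice, 6 members were higher and 1 was lower in colon, where 16.2% of all genes tested were higher and 19.6% lower. In KO mice, 4 members were higher and 2 were lower, against 17.1% and 20.0% of all genes. The comparisons use different libraries but share the estimate of spread from all 12, and Per3 in KO mice was called when ileum control 3 was left out (0.72, adjusted p = 0.072 by edgeR). Per1, Dbp, Tef and Ciart were higher and Arntl was lower in both genotypes. For the members called in 1 genotype, which are Per3 and Nr1d2 in control mice and Npas2 in KO mice, the difference between the genotypes itself did not pass (adjusted p = 1 for each, edgeR interaction term), so they are not shown to differ between genotypes. The median log2 difference of the members was 0.56 in control and 0.32 in KO mice, against 0.02 and 0.01 over all genes tested. Without overlap between the 6 colonic and the 6 ileal libraries, 3 members were higher (Per1, Dbp and Ciart) and 1 was lower (Arntl), against 13.4% and 14.7% of all genes. Scaling by library size alone moved the median of all genes by 0.22 in control and 0.27 in KO mice and raised the share of higher calls from 45.3% to 66.4% and from 46.1% to 70.8%, while the members called were 6 higher and 1 lower in control and 4 higher and 1 lower in KO mice. Upper-quartile factors moved the median by 0.13 in KO mice, with 58.3% of calls higher, and called 5 members higher and 1 lower there. With the muscle score as a term, or without ileum control 3 and ileum KO 1, 7 members were called in control and 6 in KO mice, and without ileum KO 2, which held colonic transcripts, 5 were called in KO mice. Fewest were called without colon control 3 (5 in control mice) and without colon KO 1 (4 in KO mice). The part of the lower epithelial transcripts of colon in these differences was not tested.

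**Figure D2:**
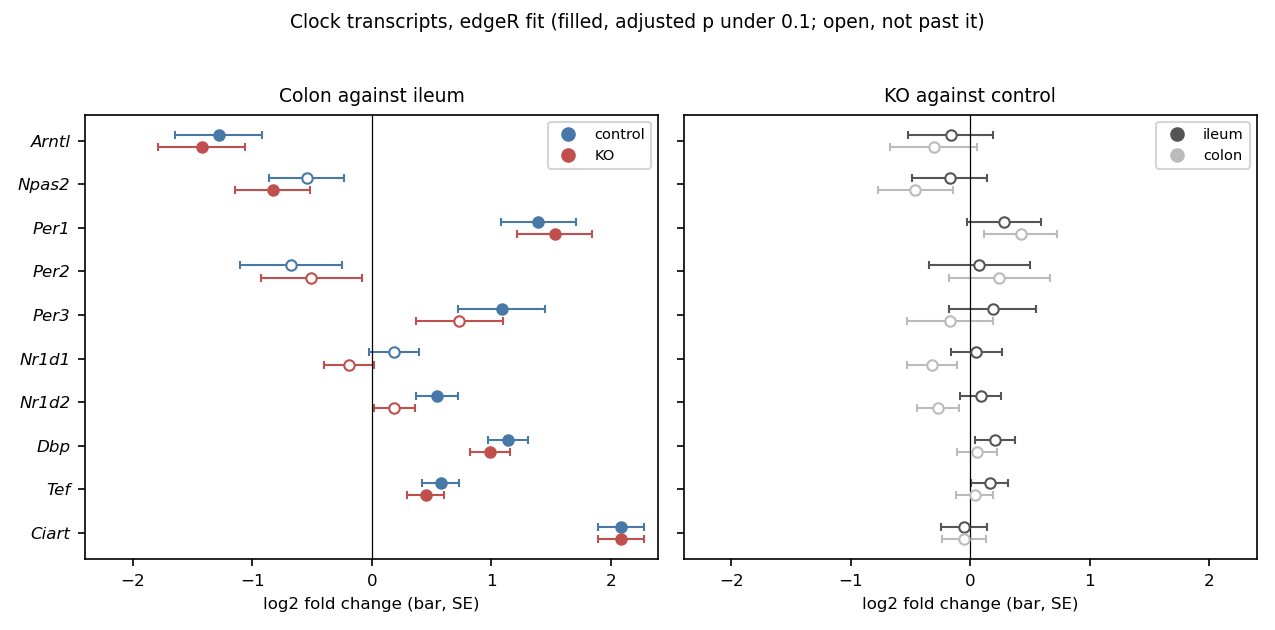
Log2 fold change of each clock transcript (x axis, bars give the SE) between colon and ileum in each genotype (left) and between Slc39a8-IEC KO and control in each tissue (right), from the edgeR fit, with filled symbols for an adjusted p under 0.1. Filled symbols appear in the left panel only, from Arntl at -1.28 and -1.42 to Ciart at 2.09, while every symbol of the right panel lies between -0.46 and 0.42.

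Several members share exon bases with a gene on the opposite strand, and no source used here says whether the counting used strand, so reads from the shared bases cannot be told apart. Dbp shares 539 bases with Sphk2, Nr1d1 shares 263 with Thra, Tef shares 193 with Gm17597 and Arntl shares 33 with Gm45355. Nr1d1 and Dbp had fractional expected counts in 12 of 12 libraries, while the other 8 members had whole ones in every library. Sphk2 was at 54.1 to 86.8 CPM in ileum and 52.5 to 67.5 CPM in colon, ranges that overlapped. Thra, which encodes a thyroid hormone receptor, was at 47.8 to 59.97 CPM in ileum and 37.9 to 45.6 CPM in colon, without overlap. The part of reads from these genes in the values of Dbp and Nr1d1 was not tested.

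To set the opposing arms of the clock against each other within a library, the mean log2 CPM of Arntl and Npas2 was subtracted from the mean log2 CPM of the 8 other members. This clock contrast does not depend on library scaling apart from the prior count, and it is given as a description with no test. Within groups the added members did not follow it alike. With group means removed, Pearson's r with the contrast was 0.76 for Tef, 0.56 for Dbp, 0.43 for Per2 and 0.39 for Ciart. It was 0.24 for Per3, 0.13 for Per1, 0.09 for Nr1d2 and -0.53 for Nr1d1, against -0.93 for Arntl and -0.80 for Npas2. Part of each r is built in, since every member enters the contrast. In ileum it was 0.93, 1.97 and 1.69 in control 1, 2 and 3 and 1.83, 1.76 and 1.82 in KO 1, 2 and 3. In colon it was 2.61, 4.04 and 3.22 in control and 4.03, 3.44 and 3.39 in KO. All colonic libraries lay above all ileal ones, and within each tissue the KO values lay inside the range of the control values. Group means ± SD of 3 libraries were 1.53 ± 0.54 in ileum control, 1.80 ± 0.040 in ileum KO, 3.29 ± 0.72 in colon control and 3.62 ± 0.36 in colon KO. The KO mean exceeded the control mean by 0.27 in ileum and 0.33 in colon, less than the SD of the control libraries in either tissue. The colonic mean exceeded the ileal mean by 1.76 in control and 1.82 in KO mice, more than the SD of any group.

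Ratios of single pairs were read beside the contrast. Dbp stood at 3.18 to 7.88 times the CPM of Arntl in the 6 ileal libraries and at 13.8 to 51.4 times in the 6 colonic ones, with colon control 2 highest and colon control 1 lowest in colon. Ciart was at 0.276 to 0.648 of the CPM of Arntl in ileum and at 2.24 to 8.47 times in colon. The ratio of Per1 to Per2, both members of the same arm, was 0.339 to 0.619 in ileum and 1.25 to 2.24 in colon, again without overlap. Within the arm opposite to Arntl, Per1, Dbp, Tef and Ciart were higher in colon in both genotypes, whereas Per2 and Nr1d1 did not pass the threshold in either.

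**Figure D3:**
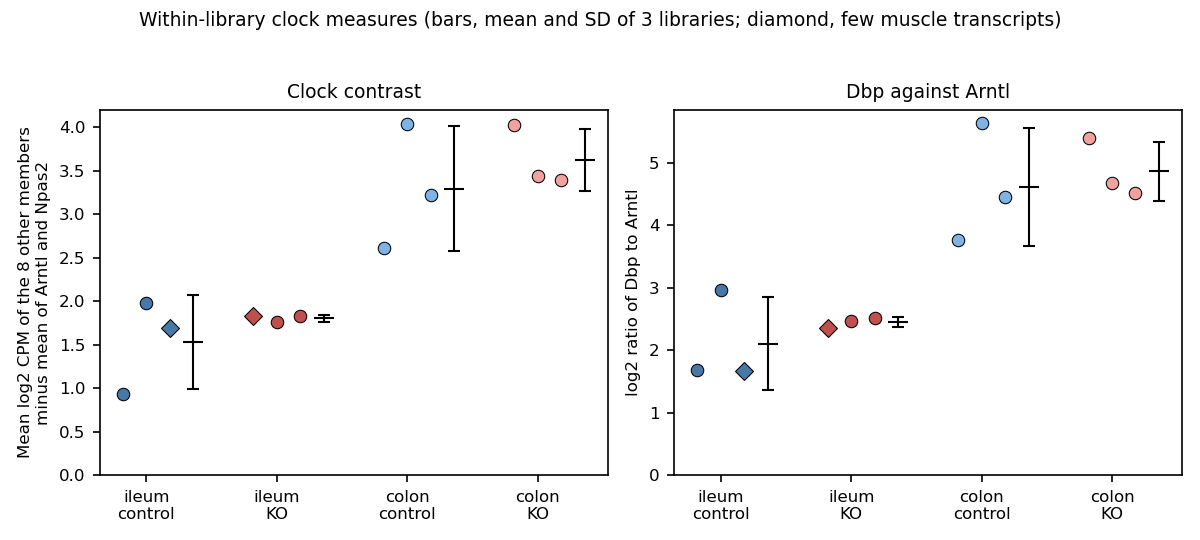
Clock contrast (left, log2) and log2 ratio of Dbp to Arntl (right) in each of the 12 libraries, with bars for the mean and SD of the 3 libraries of a group and diamonds for the 2 ileal libraries with few muscle transcripts. Every colonic point lies above every ileal point in both panels, and the KO points lie within the range of the control points of their tissue.

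Between genotypes, none of the 10 members passed the test. In the fit over both tissues 0 of 10 members and 0.0% of all genes passed an adjusted p of 0.1 by edgeR, and the same counts held in ileum, in colon and for the difference between the tissues. At an unadjusted p under 0.05, 0 members were found in any of these comparisons, against 641 genes (3.87%) over both tissues, 252 in ileum, 385 in colon and 169 for the difference. DESeq2 and limma-voom also called 0 members. The member log2 fold changes over both tissues ran from -0.32 for Npas2 (SE 0.22) to 0.35 for Per1 (SE 0.21), with a median of -0.02 against 0.00 over all genes. In ileum they ran from -0.17 (Npas2, SE 0.31) to 0.29 (Per1, SE 0.31), and in colon from -0.46 (Npas2, SE 0.32) to 0.42 (Per1, SE 0.31). The SE of the members over both tissues lay between 0.11 (Tef) and 0.29 (Per2), and a p above the threshold does not show that a member was at the same level in both genotypes. In ileum, KO and control libraries overlapped for all 10 members, where 2.13% of genes lay higher and 1.57% lower in KO without overlap. In colon, Per1 lay higher in KO (72.1 to 89.9 CPM) than in control libraries (49.2 to 66.8 CPM) without overlap, 1 member of 10 where 6.98% of genes lay higher and 5.85% lower in this way, and its difference did not pass the test (0.42, SE 0.31, adjusted p = 1 by edgeR). The signs of the small genotype differences of Per2, Per3 and Ciart over both tissues turned under some alternatives.

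The Period transcripts separated ileum control 3 and ileum KO 1, the libraries with few muscle transcripts, from the 4 other ileal libraries. These libraries were chosen for their muscle transcripts and come from both genotypes, and the values are given with no test. Per2 averaged 103 CPM in them and 41.8 CPM in the 4 others, a ratio of 2.45, Per3 had a ratio of 2.21 and Per1 of 1.87, all without overlap. Nr1d2 lay higher in both (ratio 1.24). Nr1d1 (101 against 122 CPM, ratio 0.831) and Ciart (3.99 against 5.31 CPM, ratio 0.752) lay lower in both, while Arntl (ratio 1.09), Npas2 (1.19), Dbp (0.844) and Tef (1.14) overlapped. In all, 4 members lay higher and 2 lower without overlap, where 23.2% of all genes lay higher and 27.2% lower, and for 2 members (Per2 and Per3), against 4.77% of genes, the libraries did not overlap and the ratio was at least 2. The clock contrast of the pair was 1.69 and 1.83, inside the range of the other ileal libraries (0.93 to 1.97), and neither Arntl nor Dbp stood apart in the pair. The contrast averages Per1, Per2, Per3 and Nr1d2, which lay higher, with Nr1d1 and Ciart, which lay lower. Opposite moves within that arm can cancel, so the contrast cannot show whether clock phase differed in the pair. Other clock transcripts that lay higher in both included Cry2 (ratio 2.24), the partner of the PER proteins, Bhlhe40 (1.80) and Cry1 (1.26), while Rora (0.349), Hlf (0.663) and Bhlhe41 (0.171) lay lower. Besides muscle, transcripts of fibroblasts (32.3 and 34.0 against 243 to 484 CPM summed over 4 genes) and of enteric neurons and glia (0.835 and 0.892 against 8.29 to 12.5 CPM over 5 genes) were low in the pair. Of the T and B cell markers, the B cell transcripts Ms4a1 (9.60 and 11.9 against 0.611 to 0.758 CPM) and Cd79a (12.7 and 13.8 against 0.599 to 3.36 CPM) lay higher in both, and Cd3e (ratio 0.393) and Ptprc (0.863) lay lower. Plasma cell transcripts, summed over 3 genes, were at 374 and 394 CPM against 730 to 2667 CPM. Endothelial transcripts, also summed over 3 genes, were at 9.48 and 12.2 against 3.79 to 9.67 CPM. The part of these cell types in the Per values was not tested. Of 5 glucocorticoid-responsive transcripts, 3 lay higher without overlap (Fkbp5, Sgk1 and Klf9), 1 lay lower (Zbtb16, ratio 0.0932) and Tsc22d3 overlapped. Fkbp5 was at 101 CPM in ileum control 3 and 44.4 CPM in ileum KO 1, against 17.2 to 37.0 CPM in the others, so its ratio of 2.59 rests largely on ileum control 3. Of 8 immediate early transcripts, 4 lay higher (Fosb, Egr1, Ier2 and Dusp1, with ratios of 5.88, 2.69, 1.51 and 2.74) and 1 lower (Junb, 0.861), where the shares of all genes are the 23.2% and 27.2% given above. Egr1 differed within the pair, at 31.8 CPM in ileum control 3 and 9.78 CPM in ileum KO 1.

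**Figure D4:**
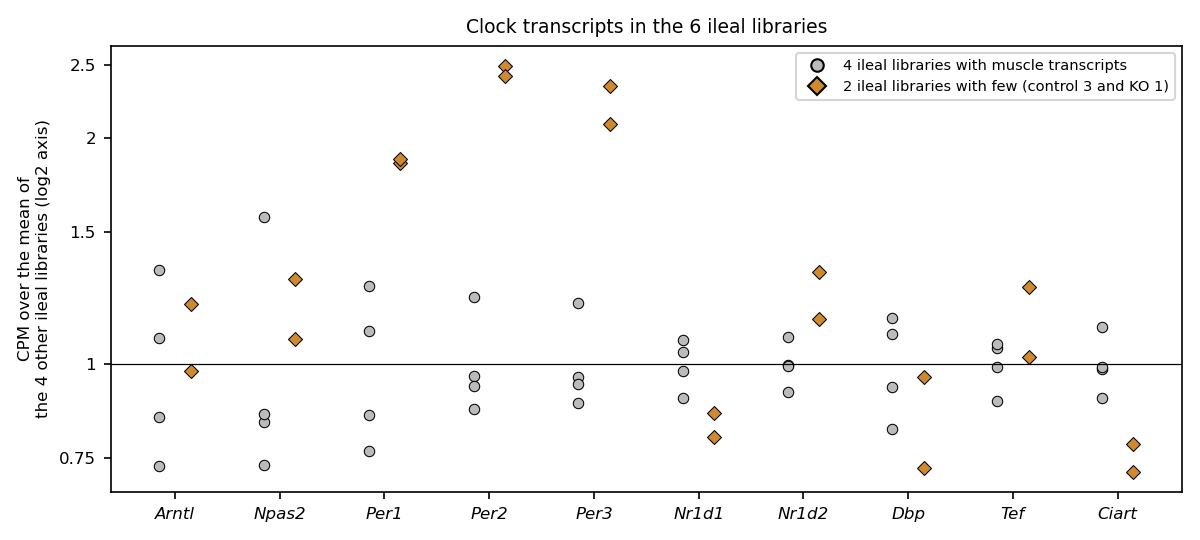
CPM of each clock transcript in the 6 ileal libraries, divided by the mean of the 4 libraries with muscle transcripts (y axis, log2 scale), with circles for those 4 and diamonds for ileum control 3 and ileum KO 1. The diamonds stand above all circles for Per1, Per2, Per3 and Nr1d2 and below all circles for Nr1d1 and Ciart.

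The spread between mice of a group differed widely among the members. The SD of log2 CPM within groups, pooled over the 4 groups, had a median of 0.35 over the members and 0.32 over all genes tested, and ran from 0.19 for Tef to 0.59 for Per2. The median over all genes includes weakly counted ones, and among genes of like level 8 of 10 members lay above the middle of the ranking, with Per2 at the 96.0, Per3 at the 94.5, Per1 at the 91.9, Npas2 at the 82.4 and Arntl at the 79.4 percentile, whereas Tef (44.2) and Ciart (24.8) lay below it. In ileum the widest members were Per2 (0.77), Per3 (0.68) and Per1 (0.56), the genes that separate the libraries with few muscle transcripts. Without that pair the median of the members was 0.20 and that of all genes, weakly counted ones included, 0.26. Among genes of like level, Ciart alone then lay below the middle (19.4). The other members ran from the 59.0 (Per1) to the 96.6 (Arntl) percentile. Colonic libraries differed most in Arntl (SD 0.61, at the 97.2 percentile of genes of like level), followed by Npas2 (0.40, 94.2), Nr1d1 (0.35, 95.2) and Per2 (0.32, 93.2), whereas Dbp and Ciart varied by 0.16 each. Arntl and Npas2 were both lowest among colonic controls in colon control 2 and lowest among colonic KO libraries in colon KO 1. These libraries had the highest clock contrast (4.04 and 4.03), which is largely built in, since the contrast subtracts Arntl and Npas2.

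Among 10552 genes outside the members with a mean of at least 5 CPM, those whose values followed the clock contrast most closely over the 12 libraries, after the group means were removed, were ranked by Pearson's r. The highest values were those of Rab3ip (0.919), Proser2 (0.917), Rhot1 (0.905), Sytl1 (0.890) and Trmt112 (0.890). Among the lowest were those of Cnot6 (-0.958), Mtch2 (-0.937), Otc (-0.921) and Wdfy1 (-0.919). These are the extremes of 10552 values over 12 libraries of ileum and colon with differing totals, and they describe these libraries only.

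Other clock transcription factors were called between the tissues about as often as genes in general. Of 9 tested on a list of 10, 2 were higher and 2 lower in colon in control mice, and 2 were higher and 1 lower in KO mice, where 16.2% of all genes were higher and 19.6% lower in control mice and 17.1% and 20.0% in KO mice. Bhlhe40, an E-box repressor also known as Dec1, was higher in colon (log2 fold change 1.16, SE 0.29 in control and 0.95, SE 0.29 in KO). Hlf, a bZIP relative of Dbp and Tef, was also higher (0.94, SE 0.32 and 0.81, SE 0.32). Clock, the partner of ARNTL, was lower in colon (-0.48, SE 0.13 and -0.45, SE 0.13), in the same direction as Arntl. Nfil3, which represses D-box genes, was lower in control mice (-1.17, SE 0.32). Between genotypes, 0 of the 9 were called, and the smallest p was that of Nfil3 over both tissues (0.42, SE 0.23), in colon (0.71, SE 0.32) and for the difference (0.57, SE 0.45), and of Bhlhe40 in ileum (0.30, SE 0.28).

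Of 8 clock protein kinases and turnover factors, 2 were higher and 4 lower in colon in control mice, and 1 was higher and 4 lower in KO mice, against the same shares of all genes. Cipc, an inhibitor of CLOCK, was at 45.4 to 114 CPM in ileum and 180 to 263 CPM in colon (log2 fold change 1.65, SE 0.31 in control and 1.67, SE 0.31 in KO). Fbxl21, a ubiquitin ligase subunit for CRY proteins, went the other way, at 3.48 to 5.92 CPM in ileum and 0.188 to 0.660 CPM in colon (-3.76, SE 0.37 and -2.82, SE 0.35). Timeless (-1.74, SE 0.58 and -1.64, SE 0.57), the PER kinase gene Csnk1d (-0.46, SE 0.17 and -0.42, SE 0.17) and the ubiquitin ligase subunit gene Fbxw11 (-0.29, SE 0.11 and -0.45, SE 0.11) were lower, and its relative Btrc was higher in control mice (0.63, SE 0.22). Between genotypes 0 of 8 were called, and the smallest p was that of Fbxl21 over both tissues (0.26, SE 0.26), in colon (0.83, SE 0.38) and for the difference (0.94, SE 0.49), and of Fbxw11 in ileum (0.12, SE 0.11).

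Lists of genes that follow the clock, hormones, feeding or handling were read beside the members, and their tissue calls stand against the same shares of all genes. Of 6 genes rhythmic in many mouse organs, Por, the electron donor of cytochromes P450, was higher in colon (1.12, SE 0.20 in control and 0.79, SE 0.20 in KO) and Tsc22d3, a glucocorticoid target, was lower (-1.07, SE 0.28 and -0.90, SE 0.28). Of 5 glucocorticoid-responsive genes, Fkbp5 (1.97, SE 0.49 and 2.71, SE 0.51) and Klf9 (0.64, SE 0.23 and 0.53, SE 0.22) were higher and Tsc22d3 again lower. Of 8 immediate early genes, Fos was lower in colon in both genotypes (-1.09, SE 0.28 and -1.38, SE 0.28), Dusp1 was higher in control mice (1.33, SE 0.46) and Atf3 was lower in KO mice (-1.32, SE 0.38). Among fasting-responsive genes, Pdk4 (4.30, SE 0.73 and 4.13, SE 0.71) and Cpt1a (1.41, SE 0.23 and 1.32, SE 0.23) were higher and Angptl4 was lower (-2.81, SE 0.55 and -2.49, SE 0.54) in colon. Between genotypes, 0 genes of these 4 lists were called in any comparison. The genes with the smallest p over both tissues included Tsc22d3 (0.42, SE 0.19) for the rhythmic and the glucocorticoid-responsive list and Egr1 (-1.44, SE 0.56) for the immediate early list. In ileum they included Por (0.36, SE 0.20), Tsc22d3 (0.34, SE 0.28) and Jun (-0.31, SE 0.23). In colon they were Tsc22d3 (0.51, SE 0.28), Sgk1 (1.41, SE 0.68), Atf3 (-0.94, SE 0.38) and Angptl4 (0.87, SE 0.53), and for the difference between the tissues they included Por (-0.32, SE 0.29), Sgk1 (1.11, SE 0.94) and Atf3 (-0.73, SE 0.53).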

How the data were processed

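One table of expected counts was deposited (estimated read counts for each gene, some of them fractional, without normalization). The study's sources name STAR (uniquely mapped reads, mm10), UMI-tools for removing duplicates and FeatureCounts for a counts file. Whether that file is the deposited table, which holds fractional values, is not given in these sources. Of 53807 lines, 92 are spike-ins and were left out (their counts sum to 0), and 93.7% of values were whole within 0.005. Library totals were 16749129 to 27903075, and all columns had a sample. Rounded counts were tested with edgeR 4.0.16 (R 4.3.3): filterByExpr with the 4 groups, TMM factors, glmQLFit and glmQLFTest on all 12 libraries, Benjamini-Hochberg adjustment over 16558 genes, and a threshold of 0.1. Genotype over both tissues had tissue as an additive term, and the other contrasts came from a model of the 4 groups. Steps were tested on simulated counts. CPM use TMM-scaled library sizes, and log2 CPM adds a prior count of 2.

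The members and the lists were chosen with earlier results of these data known. The text names all 10 members, the list genes past the threshold in a tissue comparison, the gene of each list with the smallest p in each genotype comparison, Slc39a8, and the 5 genes with the highest and the 5 with the lowest correlation to the clock contrast. Genes overlapping a member and marker genes were named besides, and so were list genes in the 2 ileal libraries with few muscle transcripts, after their values were seen. Some genes that this rule names are not reported here. Alternatives were DESeq2 1.42.0, limma-voom (limma 3.58.1), other scaling factors, filters and thresholds, a replicate block, a muscle score as a term, fits on only the libraries compared, and omission of each library or of the pair with few muscle transcripts. Coordinates are from GENCODE M21 and promoters from RefSeq (GRCm38.p6). Plots used Python 3.11.15 and matplotlib 3.10.9.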

Additional observations from a re-analysis of the deposited data

How the results depend on the processing

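With 3 mice per group, small genotype differences of the clock members could not be told from 0, and Arntl and Ciart rest on the fewest counts. The members called stayed within 1.5 times their number under all alternatives run: 0 in the genotype comparisons, 5 to 7 in control and 4 to 7 in KO mice between tissues, lowest without colon control 3 and without colon KO 1. Among all genes, where edgeR called 0 between genotypes, DESeq2 called 4 over both tissues, 2 in ileum and 1 for the difference, limma-voom 1 over both tissues and 1 in ileum, the muscle score 3 and 1, and the fit without the 2 ileal libraries with few muscle transcripts 5 and 3. The colonic libraries alone gave 1, and leaving out 1 library gave 0 to 1 over both tissues and in ileum. Replicate numbers were not taken to pair libraries, since the labels do not give the mouse. In control mice, deviations of same-numbered ileal and colonic libraries correlated at -0.086 to 0.165, and those of differently numbered ones at -0.187 to 0.169. In KO mice these ranges were 0.048 to 0.249 and -0.206 to 0.046, so shared mice are not excluded. As a fixed term, the replicate block was the replicate number alone, which control and KO libraries share although they come from different mice. It called 0 members between genotypes, 7 between tissues in control and 5 in KO mice, where Npas2 was lost (adjusted p = 0.110 by edgeR). As a random effect, the block was genotype with replicate number. It called 0, 7 and 7 members by limma-voom, with 1 gene called in ileum and Per3 called in KO mice (adjusted p = 0.0617). The block changed no other member call. Signs turned only for differences that were not called. Over both tissues, Per3 between genotypes (main value 0.01) was -0.022 by limma-voom, -0.0071 with upper-quartile factors, -0.027 with the random block, -0.046 with the muscle score, -0.015 without the 2 ileal libraries and -0.22 to 0.21 with 1 library left out. Per2 was -0.048 to 0.47 and Ciart -0.090 to 0.012 with 1 library left out, and Ciart 0.023 with library size only. Between tissues, Nr1d1 in control mice was -0.059 to 0.32 with 1 library left out, Nr1d1 in KO mice 0.090 with library size only, and Per2 in KO mice 0.15 with the muscle score. The difference of the clock contrast between tissues was 1.79, and 2.47 for Dbp against Arntl alone. The median SD of the members fell from 0.35 to 0.20 without the 2 ileal libraries. The causes were not tested.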
